A study of Mus musculus with 23 samples.

Results

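The Cd209 family of C-type lectins was followed through 3 kinds of dendritic cell of the mouse spleen. Its 7 genes, Cd209a to Cd209g, were picked by gene symbol, with their levels in these samples already known, from 19938 genes that had a probe set naming 1 gene on the Mouse Gene 1.0 ST array. Each of the 7 was read by 1 probe set of its own, and 0 probe sets named a Cd209 gene together with another gene. The sorted populations were type 1 and type 2 conventional dendritic cells (cDC1, cDC2) and plasmacytoid dendritic cells (pDC). The WT groups came from wild-type mice and had 3 arrays for each cell type. The Bcl6cKO groups, called cKO here, carried a conditional deletion of the gene of the transcriptional repressor BCL6 and had 4 arrays for cDC1 and 5 each for cDC2 and pDC. The sources used here do not give the Cre driver, strain, age, sex or number of animals behind each array. No treatment other than the enzyme digestion of the spleen, shared by every group, was named. Nothing says that the arrays within a group are from different animals. Errors and p-values therefore reflect the spread between the arrays alone, and part or all of it may be technical.

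The family is named for human DC-SIGN (CD209), a membrane lectin of dendritic cells that binds mannose- and fucose-bearing glycans of microbes and of host proteins and carries them into the cell. The mouse has several copies beside each other on 1 chromosome. Cd209a is the copy called mouse DC-SIGN or CIRE, known from cDC2 and pDC. Cd209b is SIGN-R1, the polysaccharide receptor of marginal zone macrophages. Cd209d is SIGNR3, Cd209e SIGNR4 and Cd209c SIGNR2, while Cd209f and Cd209g are copies about which less is known.

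The promoters of the 3 members with the largest cKO minus WT differences in cDC1 are shown because they share a stretch of letters, and that of Cd209b because it lay between them and the remaining copies in gene order without it. All 7 members matched the RefSeq promoter table (build GRCm38.p6), which holds 250 bases before and 50 after each annotated start. The part printed runs 5′ to 3′ on the gene's strand from 150 bases before the start to the start base itself, 151 bases. It lies on the minus strand at chr8:3748984-3749134 for Cd209a, chr8:3854286-3854436 for Cd209e, chr8:3878499-3878649 for Cd209d and chr8:3926841-3926991 for Cd209b. Capitals mark matches to the ETS-IRF composite element, GGAA and GAAA with any 2 bases between, which lie here on the opposite strand and so read TTTCTCTTCC.
Cd209a: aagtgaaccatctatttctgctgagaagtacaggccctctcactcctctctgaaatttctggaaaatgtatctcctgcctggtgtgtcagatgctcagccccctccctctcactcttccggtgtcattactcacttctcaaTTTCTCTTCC
Cd209e: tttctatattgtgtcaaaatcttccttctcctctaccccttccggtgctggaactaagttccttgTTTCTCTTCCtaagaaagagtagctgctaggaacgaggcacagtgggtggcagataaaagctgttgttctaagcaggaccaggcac
Cd209d: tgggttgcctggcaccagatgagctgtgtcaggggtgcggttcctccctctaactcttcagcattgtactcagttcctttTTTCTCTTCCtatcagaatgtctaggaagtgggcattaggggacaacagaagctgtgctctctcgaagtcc
Cd209b: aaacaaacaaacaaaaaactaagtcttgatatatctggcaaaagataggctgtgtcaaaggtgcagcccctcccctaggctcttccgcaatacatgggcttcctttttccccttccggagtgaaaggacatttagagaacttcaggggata

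The match began 9 bases before the annotated start in Cd209a, 85 in Cd209e and 70 in Cd209d, and the same 10 letters stood in each. Searched on both strands of the 300 bases, the composite element was in 3 of the 7 members and in 892 of 32851 promoters of that length (2.72%). TTCCNNGAA, a BCL6 and STAT type of motif, was in 0 of the 7 members and in 4.81% of promoters, and its wider form TTCNNNGAA in 0 of the 7 and in 8.3%. The PU.1 type GAGGAA was in Cd209d alone and in 28.3% of promoters. The cKO minus WT differences in cDC2 had another order. There Cd209c (1.57), without a match, came below Cd209d (5.49) and above Cd209a (1.0) and Cd209e (0.60). A link between match and difference was not tested. A match is a description of letters, and a missing one says only that the letters are not in the window. Over the 21 pairs of members, identity in a global alignment of the 300 bases ranged from 43.6% (Cd209a with Cd209e) to 81.2% (Cd209f with Cd209g), with a median of 49.6%. Cd209d shared 58.8% with Cd209b and 58.3% with Cd209e. How far such copies cross-hybridise on the probes was not tested, as probe sequences were not used here.

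Levels below are log2 of the deposited intensity. The number of arrays limits their precision, and the arrays parted at the largest gap in their medians into 14 of 29.3 to 34.3 intensity units and 9 of 38.9 to 41.2, each set holding all 6 groups. Summed over their lists, markers of cDC1 and pDC separated those cells from the others, while the sums of the cDC2 list overlapped between cDC2 and pDC. Those of cDC1 summed to 9171 to 13953 intensity units on the WT cDC1 arrays, 9414 to 15548 on the cKO cDC1 arrays and at most 2408 on any other. Those of pDC, such as Siglech and Ly6d, summed to 18709 to 32237 on pDC arrays and to at most 2974 elsewhere. Single markers of both lists were shared. Of the 8 cDC1 markers, 5 had means above the array median in WT cDC2 and 5 in WT pDC. Batf3 read 9.82 in WT cDC1 and 9.30 in WT cDC2, and Clec9a 10.97 in WT cDC1 and 9.74 in WT pDC. Of the 7 pDC markers on the array, 5 were above it in WT cDC1 and 5 in WT cDC2. The 8 cDC2 markers summed to 2265 to 4132 in WT cDC2 and 2318 to 5842 in cKO cDC2, against 1417 to 3799 in WT pDC, 1312 to 4011 in cKO pDC and at most 864 in cDC1. Of them Sirpa, Cd4, Irf4 and Mgl2 were high in pDC too, whereas Clec4a4 (7.55 in WT cDC2 and 3.15 in WT pDC) and Itgam (8.41 and 5.34) parted the WT cells. The 1 probe set of Bcl6 is not known to sit within the deleted exons, so it cannot check the deletion. It read cKO minus WT differences of 0.96 ± 0.35 (SE) in cDC1, 0.69 ± 0.33 in cDC2 and −0.15 ± 0.33 in pDC (limma adjusted p of 0.598, 0.756 and 1.0). In cDC1 it passed in 1 of the alternatives, with 3 array sets as a term (adjusted p = 0.0125). Xist, the RNA of the inactive X chromosome of females, was high on WT array 1 of each cell type (10.9 to 11.9) and at most 5.07 on every other array.

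Cd209d, which encodes SIGNR3, had the widest span of the family. In WT cDC1 its 3 arrays read 3.95, 4.43 and 4.83, at or below background, as the mean of those arrays' medians was 5.07. The 4 cKO cDC1 arrays read 9.13, 9.09, 9.96 and 9.32. All cKO cDC1 arrays lay above all WT ones, by 4.97 ± 0.37 (SE; 31.4-fold). In WT cDC2 the arrays read 4.81, 6.17 and 5.68, and in cKO cDC2 10.70, 10.71, 10.47, 11.74 and 11.59. These groups did not overlap either, with a difference of 5.49 ± 0.36 (45-fold). In pDC the gene was high in both genotypes, at 10.69, 10.85 and 11.86 in WT and 10.64, 10.36, 10.29, 10.84 and 11.26 in cKO. The pDC groups overlapped, with a cKO minus WT difference of −0.46 ± 0.36. By mean level WT pDC (11.14 ± 0.64, SD, n = 3), cKO cDC2 (11.04 ± 0.58, n = 5) and cKO pDC (10.68 ± 0.39, n = 5) overlapped as neighbours. The cKO cDC1 arrays (9.38 ± 0.41, n = 4) lay beyond the spread below them, and WT cDC2 (5.55 ± 0.69, n = 3) and WT cDC1 (4.41 ± 0.44, n = 3) overlapped at the bottom. The WT means are so near the array median that the size of both folds is uncertain.

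Cd209a, the mouse DC-SIGN gene, parted WT cDC1 from every other group. Its WT cDC1 arrays read 5.76, 4.89 and 6.07 and its cKO cDC1 arrays 8.63, 8.74, 8.84 and 8.89. The groups did not overlap and differed by 3.20 ± 0.26 (9.22-fold, of uncertain size, as the WT mean was near the array median). WT cDC2 read 9.95, 10.56 and 10.96 and cKO cDC2 11.23, 11.49, 11.38, 11.68 and 11.68. All cKO cDC2 arrays again lay above the WT ones, by 1.0 ± 0.25 (2.0-fold). WT pDC read 10.47, 10.98 and 11.08 and cKO pDC 10.22, 10.04, 9.93, 10.61 and 10.48. These overlapped, with cKO lower by a difference of −0.59 ± 0.25. In order of mean level, cKO cDC2 (11.49 ± 0.20, SD, n = 5) was beyond the spread above WT pDC (10.84 ± 0.33, n = 3), WT cDC2 (10.49 ± 0.51, n = 3) and cKO pDC (10.25 ± 0.29, n = 5), which overlapped as neighbours. Next came cKO cDC1 (8.78 ± 0.11, n = 4) and then WT cDC1 (5.57 ± 0.61, n = 3), each beyond the spread of the one above. The cKO cDC1 arrays thus lay between WT cDC1 and WT cDC2, whose means were 4.92 ± 0.28 (SE) apart.

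Cd209e, the SIGNR4 gene, stood furthest above the array median in cKO cDC1. WT cDC1 read 5.14, 4.59 and 4.95 and cKO cDC1 6.84, 6.51, 8.46 and 7.19. The groups did not overlap and differed by 2.36 ± 0.36 (5.12-fold), and cKO array 3 was the highest of all 23. The WT cDC1 mean of 4.89 was below the mean array median of 5.07, so the size of this fold is uncertain too. WT cDC2 read 4.74, 4.94 and 4.63 and cKO cDC2 5.13, 5.05, 5.79, 5.44 and 5.46. All cKO cDC2 arrays lay above the WT ones, with a smaller difference of 0.60 ± 0.35. WT pDC read 4.88, 6.11 and 6.22 and cKO pDC 5.67, 5.16, 4.83, 5.22 and 5.72, which overlapped (−0.42 ± 0.35). The cKO cDC1 mean (7.25 ± 0.86, SD, n = 4) was beyond the spread above the next, WT pDC (5.74 ± 0.74, n = 3), and all later neighbours overlapped.

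Cd209c, the SIGNR2 gene, was near background in cDC1 of both genotypes. WT cDC1 read 4.06, 4.34 and 4.83 and cKO cDC1 4.51, 4.49, 5.22 and 4.90, a difference of 0.37 ± 0.48 with overlap. WT cDC2 read 4.88, 6.08 and 7.07 and cKO cDC2 7.24, 7.09, 7.10, 8.17 and 8.31. The highest WT and lowest cKO array were 7.07 and 7.09, so these groups only just did not overlap, at a difference of 1.57 ± 0.46 (2.98-fold). WT pDC read 6.0, 5.85 and 7.85 and cKO pDC 5.58, 5.51, 6.02, 5.74 and 6.76, with overlap (−0.65 ± 0.46). The highest array of WT cDC2 and of WT pDC, number 3 in each, belonged to the set with high medians, and so did cKO cDC2 arrays 4 and 5. In order of mean level, cKO cDC2, WT pDC, WT cDC2 and cKO pDC overlapped as neighbours, and both cDC1 groups lay below them.

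Cd209b, the SIGN-R1 gene, exceeded the array median only on 4 of the 5 cKO cDC2 arrays. WT cDC2 read 4.29, 4.69 and 5.20 and cKO cDC2 4.26, 5.46, 5.08, 5.94 and 5.45. The groups overlapped, at a difference of 0.51 ± 0.30. The differences were 0.29 ± 0.31 in cDC1, where the highest array read 4.78, and −0.11 ± 0.30 in pDC. Cd209f ranged from 2.80 to 4.14 over the 23 arrays (median 3.38) and Cd209g from 3.79 to 4.97 (median 4.12). Both were above the array median on 0 arrays, their cKO minus WT differences lay between −0.07 and 0.07 in all 3 cell types, and no neighbours in the order of their groups, or of those of Cd209b, stood beyond the spread.

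**Figure D1:**
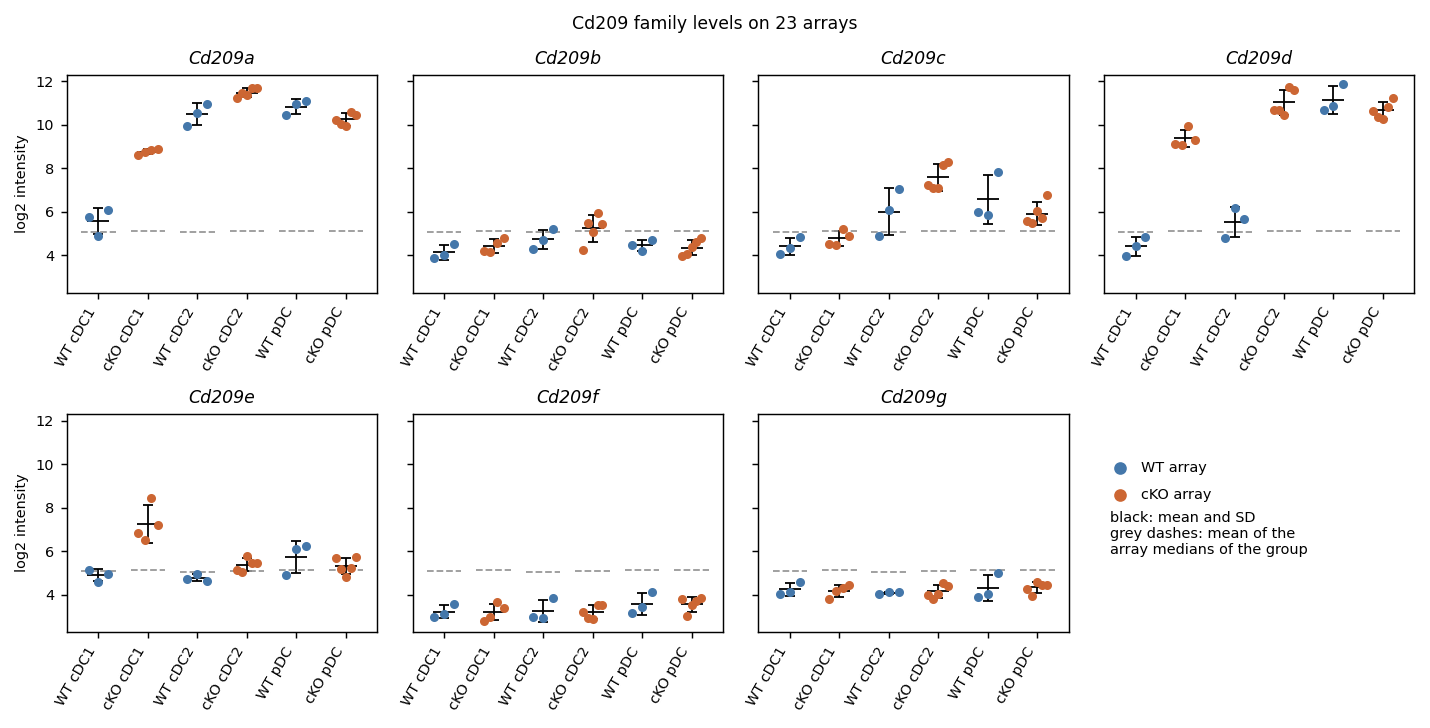
Each panel plots 1 Cd209 gene, with the log2 intensity of every array (points) by group on the horizontal axis, the mean and SD in black and the mean of the group's array medians as grey dashes. Cd209d was near the array median in WT cDC1 and WT cDC2 and above 9 on every cKO cDC1 and cKO cDC2 array, Cd209e was highest in cKO cDC1, and Cd209f and Cd209g lay below the dashes throughout.

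**Figure D2:**
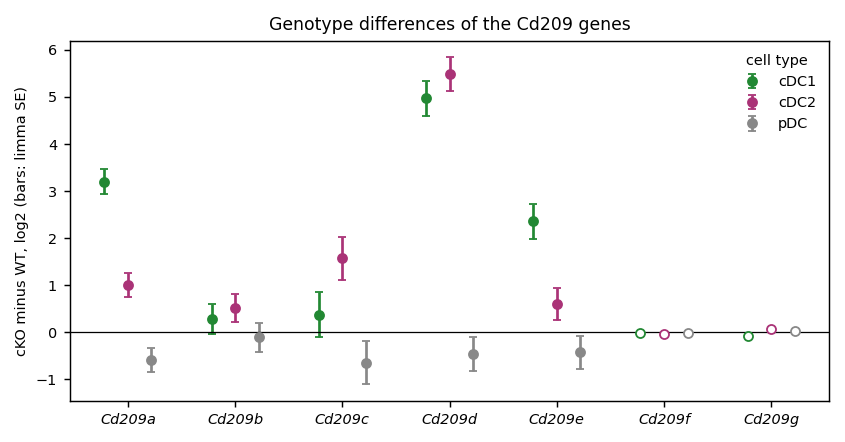
Points give the cKO minus WT difference in log2 intensity of each Cd209 gene in cDC1, cDC2 and pDC, with limma's SE as bars, and open points mark the 2 genes that did not pass the filter and have no SE. Cd209d stood near 5 in both conventional types, Cd209a and Cd209e were larger in cDC1 than in cDC2, Cd209c was larger in cDC2, and the pDC values lay at or below 0 but for 0.03 in Cd209g.

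The comparison of the genotype differences between cell types followed the genes apart. These members were chosen with those differences in view, so the values are a description. For Cd209a the cDC1 difference exceeded the cDC2 difference by 2.20 ± 0.37 and for Cd209e by 1.75 ± 0.50. For Cd209d the gap was −0.52 ± 0.51 and for Cd209c −1.20 ± 0.66, both with the larger value in cDC2. Against pDC, the Cd209d difference was larger by 5.43 ± 0.51 in cDC1 and by 5.95 ± 0.50 in cDC2.

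A gene counted as called at an adjusted p below 0.05 over the 12157 genes left by a filter on low values (above the array's median on 3 or more arrays), which 5 of the 7 members passed, Cd209b only through cKO cDC2. Between cKO and WT cDC1, 3 members were called, all higher (Cd209a, Cd209d, Cd209e), where 0.814% of all genes were called higher. In cDC2, 2 were called higher (Cd209a, Cd209d), against 1.16%. In pDC limma called 0 of the 5 (1 at an unadjusted p under 0.05), against 0.0329% of all genes. For 3 tested members the groups did not overlap in cDC1, with cKO higher (2.94% of all genes), and the same held for 4 in cDC2 (3.27%) and 0 in pDC (0.666% in either direction). The genes were picked for these very differences, so nothing is read from the counts. The Cd209a call in cDC2 ended in 13 of 23 fits that left out 1 array, namely without WT cDC1 array 1, cKO cDC1 arrays 1 to 4, WT cDC2 arrays 1 and 2, cKO cDC2 arrays 2 to 5 and cKO pDC arrays 1 and 2, with differences of 0.73 to 1.24 over the 23. It also ended without any filter, with the replicate number as a block, without the 3 WT arrays of high Xist and when the 2 groups were fitted alone. Without those 3 arrays the difference was 0.73. Arrays of equal number do not count as paired in cDC2, so the block may not match them there.

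The differences of Cd209a, Cd209c, Cd209d and Cd209e in cDC1 and cDC2 kept their direction within both sets of arrays. In the set with high medians each of them rests on 1 WT array. Within the sets with low and high medians Cd209d differed by 4.92 and 4.81 in cDC1 and by 5.14 and 5.99 in cDC2. Cd209a differed by 3.36 and 2.80 in cDC1 and by 1.11 and 0.72 in cDC2, and Cd209e by 1.81 and 2.87 in cDC1. Cd209c in cDC2 differed by 1.67 and 1.17. In pDC the Cd209c value moved from −0.22 to −1.60 between the sets, with 1 WT array in the second. The sign changed between the sets for members at or near background, namely Cd209b in pDC (−0.22 and 0.0011), Cd209f in cDC2 (0.05 and −0.29) and pDC (0.14 and −0.38), and Cd209g in cDC2 (−0.13 and 0.35) and pDC (0.31 and −0.56).

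Among wild-type cells the family parted the 3 types, in comparisons that share their groups. Cd209a was 4.92 ± 0.28 lower in cDC1 than in cDC2 and 5.27 ± 0.28 lower than in pDC, while cDC2 and pDC differed by −0.35 ± 0.28 (cDC2 minus pDC). Cd209d was high in pDC alone, with cDC2 minus pDC at −5.59 ± 0.40 and cDC1 minus pDC at −6.73 ± 0.40. Cd209c differed by −2.16 ± 0.51 between cDC1 and pDC and by 1.60 ± 0.51 between cDC2 and cDC1. In these comparisons 1 member was called between cDC2 and cDC1 (6.05% of all genes), 1 between cDC2 and pDC (12.7%) and 3 between cDC1 and pDC (13.5%). With the replicate number as a block, 3 members were called between WT cDC2 and cDC1, Cd209c and Cd209d being added, with 1158 genes against 736, and 4 members with 1977 genes when only those 2 groups were fitted.

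On the cKO cDC2 arrays Cd209d stood at its pDC level, so pDC markers were read on the same arrays. Of the 8 fixed pDC markers 7 were on the array and tested, and limma called 0 of them between cKO and WT in cDC1 or cDC2 (1 at an unadjusted p under 0.05 in each). Their summed intensity was 950 to 1788 in WT cDC1 and 1197 to 2404 in cKO cDC1, and 844 to 1773 in WT cDC2 and 1528 to 2974 in cKO cDC2, against 18709 to 31793 in WT pDC. The pDC receptor Siglech read means of 5.48 and 5.46 in WT and cKO cDC1 and 5.89 and 5.78 in cDC2, against 12.42 in WT pDC. Ly6d read 4.93 and 4.97 in cDC1 and 5.05 and 4.95 in cDC2, below the array median, against 12.29 in WT pDC. Other markers of the list had higher means in cKO than in WT cDC2 without passing. Tcf4, the transcription factor gene of pDC, read 8.44 in WT and 9.36 in cKO cDC2 (limma adjusted p = 0.112), Bst2 9.27 and 10.09 (0.809) and Pacsin1 5.57 and 5.95 (1.0). In cDC2 Tcf4 passed with 3 array sets as a term (adjusted p = 0.0305) and with array weights (0.0286), and Bst2 with the array set (0.0423) and with 3 array sets (0.00777). In cDC1 Bst2 read 9.62 and 10.32, and Ccr9 7.07 in WT and 6.08 in cKO (limma adjusted p of 1.0 and 0.713).

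Markers of other myeloid cells moved with genotype in part. Of 8 cDC2 markers, Itgam and Sirpa rose in cKO cDC1, where the list summed to 302 to 369 in WT and 692 to 864 in cKO. In cDC2, Itgam and Mgl2 rose while Clec4a4 and Dtx1 fell, and of 8 cDC1 markers Naaa rose. Of 9 tested monocyte and neutrophil markers, Ccr2 and Lyz2 rose and Csf3r fell in cKO cDC2, with sums of 905 to 2369 in WT and 1680 to 3142 in cKO, and 0 were called in cKO cDC1 (2 at an unadjusted p under 0.05). Of 10 red pulp macrophage markers Adgre1 rose in cKO cDC1, and Cd163 and Mertk rose in cKO cDC2, with overlapping sums in both types. Limma called 0 of 4 tested marginal zone macrophage markers in any type (1 at an unadjusted p under 0.05 in cDC1 and in cDC2 and 0 in pDC). The sums of the 6 such markers on the array were 184 to 221 in WT and 242 to 308 in cKO cDC1, without overlap, and 163 to 171 and 166 to 205 in cDC2. Timd4, the 1 marker of the list with means above the array median in cDC1, read 6.40 in WT and 7.24 in cKO cDC1. Marco was at or below the array median in 6 of 6 group means. B, T, NK and endothelial lists had 0 called genes in all 3 types (0 to 3 per list at an unadjusted p under 0.05). The 3 were of 5 tested T cell markers in cDC2, with a list median of 0.67 beside 0.07 over all genes. Their sums were 395 to 549 in WT and 500 to 886 in cKO cDC2. Cd3g read means of 5.85 in WT and 7.91 in cKO cDC2, while Cd5 went the other way (7.89 and 7.37). In the NK list Ncr1 read 4.66 and 6.30 and Klre1 5.39 and 5.30. Several of the calls named above were near the threshold. The Lyz2 call ended in 22 of 33 settings (adjusted p of up to 0.483), 18 of them without 1 array: WT cDC1 arrays 1 to 3, cKO cDC1 arrays 1 to 4, WT cDC2 arrays 1 and 3, cKO cDC2 arrays 1 to 5, WT pDC array 1 and cKO pDC arrays 1, 2 and 5. That of Adgre1 ended in 13 of 34 (up to 0.283), 11 of them without 1 array: WT cDC1 arrays 1 to 3, cKO cDC1 arrays 1 to 4, WT cDC2 array 1, WT pDC array 3 and cKO pDC arrays 2 and 5. Naaa did not pass without WT cDC2 array 1 or 3 or cKO cDC2 array 1 or 2, Cd163 without WT cDC2 array 1 or 3, and Csf3r without WT cDC2 array 3. The part of these markers in the Cd209 differences was not tested, and in such pools more cells of a type and more RNA per cell cannot be told apart.

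The cluster was then read with its neighbours. In the RefSeq gene table the members follow each other as Cd209a, Cd209e, Cd209d, Cd209b, Cd209c, Cd209f and Cd209g, with 0 other genes with a 1-gene probe set among them. Of the 10 nearest such genes on each side, 17 of 20 were tested and limma called 0 in any cell type, with 1 at an unadjusted p under 0.05 in cDC1, 4 in cDC2 and 0 in pDC. Their median cKO minus WT difference was 0.05 in cDC1, 0.15 in cDC2 and 0.02 in pDC, beside 0.06, 0.07 and 0.05 over all genes tested. Clec4g, the lectin gene directly before Cd209a, differed by 0.12 ± 0.38, 0.43 ± 0.36 and −0.31 ± 0.36 (adjusted p of 1.0 each). Fcer2a, the low-affinity IgE receptor gene before it, differed by −0.08 ± 0.41, 0.15 ± 0.39 and 0.03 ± 0.39. The largest differences were in Trappc5, a subunit of a vesicle-tethering complex, at 1.21 ± 0.34 in cDC1 (adjusted p = 0.154), and in Mcemp1, a myeloid membrane protein, at 1.12 ± 0.42 in cDC2 (adjusted p = 0.384). Over the alternatives the adjusted p ran from 0.000312 to 1.0 for Trappc5 in cDC1 and from 0.000851 to 1.0 for Mcemp1 in cDC2. Trappc5 passed with the replicate number as a block over all arrays (adjusted p = 0.0140) and not with the block within the cDC1 arrays (0.0633).

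**Figure D3:**
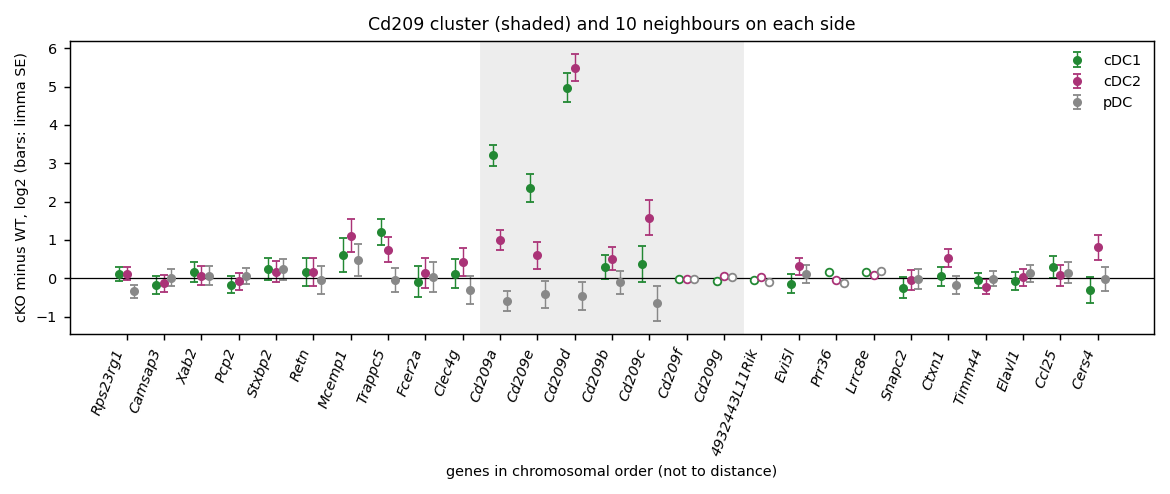
The cKO minus WT difference in log2 intensity, with limma's SE as bars, is plotted in cDC1, cDC2 and pDC for the 7 Cd209 genes (shaded) and 10 genes on each side in chromosomal order, evenly spaced and not to distance. Open points did not pass the filter. The neighbours lie between −0.34 and 1.21, with Mcemp1 and Trappc5 the highest, while Cd209a, Cd209e and Cd209d, which are next to each other, stand above them in cDC1.

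Of the related C-type lectins, receptors that bind sugars of microbes or of dying cells, 19 of 21 were tested. In cKO cDC1 3 rose and 0 fell: Clec4b2 (1.85 ± 0.30, limma adjusted p = 0.000992), Clec4a2 (1.72 ± 0.34, adjusted p = 0.00840) and Clec4n, the gene of the fungal receptor Dectin-2 (1.69 ± 0.38, adjusted p = 0.0265). In cKO cDC2 3 rose and 1 fell. Clec4n rose by 3.71 ± 0.36 (adjusted p = 9.95e-07), the galactose-type lectins Clec10a by 2.41 ± 0.44 (adjusted p = 0.00245) and Mgl2 by 2.0 ± 0.41 (adjusted p = 0.00782), and Clec4a4, an inhibitory receptor of splenic cDC2, fell by 2.72 ± 0.28 (adjusted p = 1.96e-06). In pDC limma called 0 (1 at an unadjusted p under 0.05), the largest differences being −0.82 ± 0.37 in Clec7a and −0.44 ± 0.31 in Clec4a1 (adjusted p of 1.0 each). The list's median was 0.05 in cDC1, 0.32 in cDC2 and −0.14 in pDC. In cDC1 the Clec4n call ended without WT cDC1 array 1, 2 or 3 or cKO cDC1 array 2 or 3 (adjusted p of 0.0796 to 0.148) and when cDC1 arrays alone were fitted with the replicate block (adjusted p = 0.0844). It also ended when cDC1 arrays alone were fitted without the block (0.0783). The Clec4a2 call ended without WT cDC1 array 1 (adjusted p = 0.138). Without the 3 WT arrays of high Xist, Clec4a2 (0.149) and Clec4n (0.0958) in cDC1 and Mgl2 (0.166) in cDC2 did not pass. In cDC2, without WT cDC2 array 1, Clec10a (adjusted p = 0.0540) and Mgl2 (0.135) did not pass. With the 2 groups alone Mgl2 in cDC2 (0.0643) and Clec4b2 in cDC1 (0.0537) did not pass.

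Signalling partners of DC-SIGN, such as the adaptor Lsp1, the kinase Syk and the NF-kappaB subunit Rela, showed 0 calls among 17 tested in each cell type (limma; 0, 2 and 0 at an unadjusted p under 0.05 in cDC1, cDC2 and pDC). Fcer1g, the Fc receptor gamma chain, differed by 0.43 ± 0.27 in cDC1 and the deubiquitinase Cyld by −0.70 ± 0.22 in cDC2 (adjusted p of 1.0 and 0.174). Cyld passed in 2 of 33 settings, with the array set as a term (adjusted p = 0.0280) and with 3 array sets (0.0149), and its adjusted p ran up to 0.740. In pDC Syk differed by 0.58 ± 0.39. Medians were 0.06, 0.06 and 0.23. Of 8 host ligands of the family, which include adhesion molecules and complement C1q chains, the integrin subunit Itgam rose in cKO cDC1 by 2.14 ± 0.28 (adjusted p = 5.35e-05) and in cKO cDC2 by 1.25 ± 0.27 (adjusted p = 0.0128). The other ligands tested did not pass, nor did any in pDC (0 at an unadjusted p under 0.05), and medians were 0.05, 0.42 and −0.04. Without WT cDC2 array 2 or 3 the Itgam difference in cDC2 did not pass (adjusted p of 0.0773 and 0.0908), nor with the 2 groups alone (0.0802). Of 10 tested transcription factors described at the human gene, such as PU.1 (Spi1), Runx3 and Stat6, limma called 0 in each cell type (1, 4 and 0 at an unadjusted p under 0.05), with medians of −0.0027, 0.08 and 0.14. The list includes Bcl6 itself, whose probe set cannot check the deletion. Bcl6 was the 1 under 0.05 in cDC1 (limma unadjusted p = 0.0108) and 1 of the 4 in cDC2 (0.0483). Runx1 differed by 0.74 ± 0.27 and Runx3 by −0.70 ± 0.21 in cDC2 (adjusted p of 0.331 and 0.151). Over the alternatives their adjusted p ran from 0.0261 to 0.866 and from 0.00713 to 0.518, and they passed in 3 and 4 of 33 settings.

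The cytokine IL-4 is the classical inducer of DC-SIGN in myeloid cells, so genes of the IL-4 pathway and of IL-4-treated macrophages were read too, 18 of 22 tested. In cKO cDC1 3 rose: the eosinophil chemokine Ccl24 by 6.45 ± 0.24 (adjusted p = 2.85e-14), the signalling inhibitor Socs2 by 1.69 ± 0.31 (adjusted p = 0.00311) and transglutaminase 2 (Tgm2) by 1.57 ± 0.23 (adjusted p = 0.000280). In cKO cDC2 6 rose and 1 fell. Fibronectin (Fn1) rose by 3.05 ± 0.37 (adjusted p = 1.76e-05), the chemokine Ccl22 by 2.13 ± 0.29 (adjusted p = 8.61e-05), and Clec10a, Mgl2, Socs2 (1.77) and Il13ra1 (1.59) rose as well, whereas Tgm2 fell by 1.59 (adjusted p = 0.000123). The Il13ra1 call (adjusted p = 0.0393) ended in 11 of 33 settings, with an adjusted p of up to 0.394. They were no filter, without the 3 WT arrays of high Xist, and without WT cDC1 array 2, cKO cDC1 array 3, WT cDC2 array 1 or 2, cKO cDC2 arrays 2 to 5 or cKO pDC array 1. In pDC limma called 0 of the 18, with 0 at an unadjusted p under 0.05. Medians were 0.07, 0.32 and 0.12. The receptor chain Il4ra and Stat6 did not pass in any type. The lists were drawn up with earlier results of these samples known and share Clec10a, Mgl2, Mrc1, Clec4g, Fcer2a, Rela, Stat6 and Irf4 between pairs, so their counts are no independent evidence.

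To show which genes had profiles like those of the members, each gene was centred on its mean and the root mean square difference from a member was taken over the 23 arrays, 6 groups. A gene that is flat over the arrays scores the SD of the member itself, which was 1.86 for Cd209a and 2.57 for Cd209d. Nearest to Cd209a were Zeb2 (0.729 log2 units), Sirpa (0.743), Klrd1 (0.799), Ms4a4c (0.812) and Fcer1g (0.933), where the median over all genes was 1.89. Zeb2, a transcription factor gene, had cKO minus WT differences of 1.92 in cDC1 and 0.75 in cDC2. Nearest to Cd209d were the actin-capping gene Capg (1.09), the sialic acid receptor Cd33 (1.23), P2ry13 (1.42), Upb1 (1.49) and Il1rl2 (1.54), where the median was 2.58. Capg differed by 5.04 in cDC1, 4.55 in cDC2 and 0.74 in pDC, and Cd33 by 4.68, 2.46 and 0.52. For Cd209e the 5 nearest were Cldnd1, Gbp2b, Mir342, Pparg and Cyp8b1 (0.529 to 0.585, median over all genes 0.963). For Cd209c they were Cyp4f18, Adm, Wls, Abcg2 and Lilra6 (0.60 to 0.682, median 1.25), and for Cd209b, with its narrow range, Eif4e3, Zbtb32, Birc2, Lmo1 and Stxbp6 (0.271 to 0.295, median 0.593). No member was among the 5 nearest to another.

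**Figure D4:**
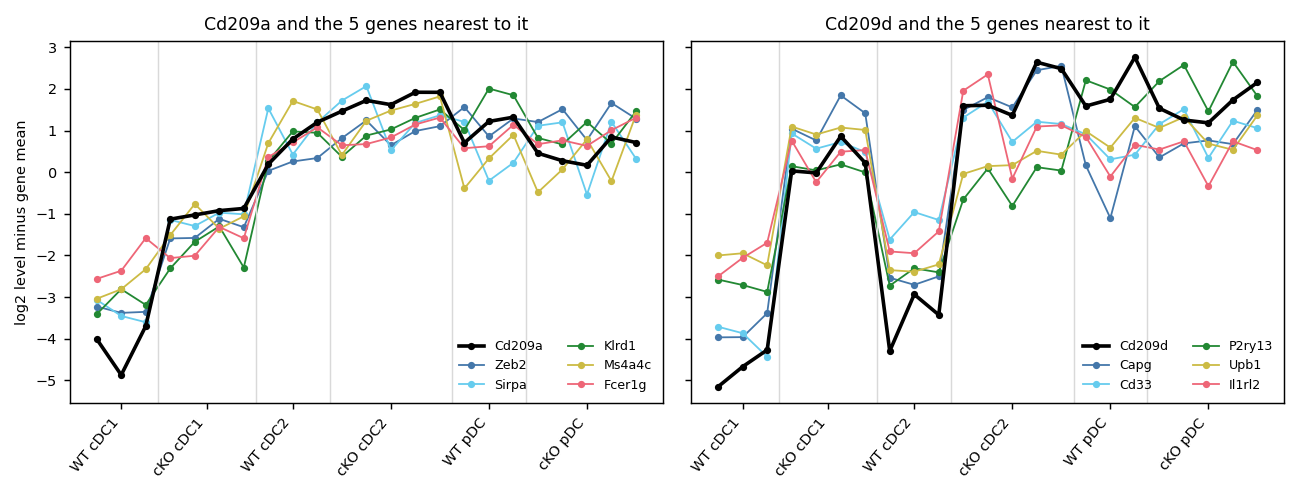
Lines give the log2 level minus the gene's mean on each of the 23 arrays, ordered by group and replicate, for Cd209a (left, black) and Cd209d (right, black) and the 5 genes with the smallest root mean square difference from each. The lines join separate samples for the eye only. Cd209a, Zeb2, Sirpa, Klrd1 and Ms4a4c are lowest in WT cDC1 and intermediate in cKO cDC1, while Fcer1g overlaps between these groups. Cd209d and its like genes are low in both WT cDC1 and WT cDC2.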

How the data were processed

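Total RNA of sorted splenic dendritic cells was labelled with the Affymetrix WT Pico reagent kit, per the labels' protocols, and hybridised to 23 arrays. The deposited intensity values came from Affymetrix Expression Console with RMA, per the submitters' processing notes, whose versions the sources used here do not give. They run from 3.785 to 13980.744 on a linear scale, 1 per probe set and array, so log2 was taken. Of 28853 probe sets 21789 named 1 gene, of which 21698 matched RefSeq (GRCm38.p6) by Entrez identifier. The files name no genome build, so RefSeq gave only names, gene order and promoter sequence. Where several probe sets of a gene passed the filter (above the array median on at least 3 arrays), the one with the highest mean was kept, 12157 genes in all.

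limma 3.58.1 in R 4.3.3 fitted the 6 group means to the log2 values of 23 arrays (17 residual degrees of freedom). Tests were two-sided and adjusted over the 12157 genes by Benjamini-Hochberg, and the code was tested on simulated data. Members get values and limma standard errors but no p-values. The members and lists were chosen with earlier results of these data known. Named are all members, the 10 genes on each side of the cluster (values of the 2 with the largest difference, as none was called, and of the 2 next to Cd209a, chosen after their values were seen), up to 4 called genes per list and contrast or the 2 largest differences, and the 5 genes nearest in profile. Further list genes that complete a count were also named after their values were seen. Promoters were searched and aligned with Python 3.11.15, Biopython 1.88 and pandas 2.3.3, and figures drawn with matplotlib 3.10.9.

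Replicate numbers come from the labels. Arrays of equal number deviated together for cKO against WT in cDC1 (r of 0.48 to 0.56 over genes) and for the 3 WT comparisons (0.43 to 0.71), so these count as paired, but not for cDC2 (−0.10 to 0.67) or pDC (−0.27 to 0.65). Where they count as paired, arrays of equal number also shared 1 of the 3 array sets. In cKO cDC2 and cKO pDC, arrays 1 and 2 fell in the same set, unlike WT arrays 1 and 2. A shared array set and matched samples therefore cannot be told apart. Xist was high on WT array 1 but not on cKO array 1. The main differences, errors and adjusted p-values come from the fit of group means, which leaves this pairing out. The pairing enters only through the replicate block among the alternatives. Between 2 arrays of a group at most 8.44% of values were equal, in cKO cDC2 arrays 4 and 5. Next came cKO cDC1 arrays 3 and 4 (7.52%), cKO pDC arrays 4 and 5 (3.48%) and cKO cDC1 arrays 1 and 2 (1.28%). Equal values can find a copied array but not 1 RNA sample put on 2 arrays. Whether such pairs share their origin was not tested. The alternatives tried were quantile normalization, other filters, the mean of probe sets, the replicate block, the array set as a term, array weights, the 2 groups alone and leaving out arrays.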

Additional observations from a re-analysis of the deposited data

Results flagged for a closer look

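The cKO minus WT difference of Cd209a had opposite signs in conventional dendritic cells and pDC, each cKO array lying on 1 side of the WT mean: 3.20 in cDC1 and 1.0 in cDC2, against −0.59 in pDC. The same held for Cd209e, with 2.36 and 0.60 against −0.42. The members were chosen with these differences known, so the values are a description and support nothing.

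Among the listed genes outside the family, the genotype effect differed between cell types by limma's interaction contrasts (adjusted over all genes tested). Between cDC1 and cDC2 the effects differed, cDC1 minus cDC2, by 6.04 in Ccl24 (adjusted p = 1.19e-10), 3.16 in Tgm2 (5.84e-06), 2.52 in Clec4a4 (0.00268) and −3.27 in Fn1 (0.00334). Between cDC1 and pDC they differed by 6.36 in Ccl24 (adjusted p = 4.06e-11), 1.97 in Tgm2 (0.00207), 2.32 in Itgam (0.00291), 2.08 in Clec4b2 (0.0201) and 1.93 in Socs2 (0.0475). Between cDC2 and pDC they differed by 3.56 in Clec4n (adjusted p = 0.000684), −2.45 in Clec4a4 (0.00240), 2.83 in Fn1 (0.00832), 2.02 in Socs2 (0.0211) and 1.81 in Ccl22 (0.0443). Clec4a4 was below the array median in cDC1 (means of 3.13 in WT and 2.92 in cKO) and in pDC (3.15 and 2.88). It had little room to fall there, so its values here may only restate its fall in cDC2. With the replicate block Ccl22 did not pass (0.0559), and 3 further differences did: Clec4b2 (1.47, adjusted p = 0.0348) and Clec4n (−1.94, 0.0350) between cDC1 and cDC2, and Clec4a2 (1.96, 0.0143) between cDC1 and pDC. Each of these uses a cDC2 or pDC effect. Arrays of equal number do not count as paired there, so the block may not match them.

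In none of 21 sets of 4 or 5 arrays (7 members, 3 cKO groups) did 1 array stand apart by Dixon's criterion, where chance would mark about 1 in 20.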

How the results depend on the processing

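Over 36 alternative settings the members' differences gave 1064 values, of which 1061 lay within 1 SD of the reported one, 3 moved further and 0 called ones changed sign. The 3 were within the high-median set (Cd209c in pDC −1.60, Cd209e WT cDC2 minus pDC −1.59, Cd209c WT cDC1 minus pDC −3.02). Many of the 1064 values could not move. Each member has 1 probe set, so other filters, the mean of probe sets and the 2 groups alone leave its difference unchanged. So does leaving out an array of a group outside the comparison. The 1061 are therefore no measure of robustness. Counts of members called moved by more than 1.5 times in these settings. For cKO against WT in cDC2 (2), 1 was called without a filter, with the replicate block, without the WT arrays numbered 1 and with 2 groups alone. A smaller move there was to 3, Cd209c being added, with quantile normalization, the array set as a term, 3 array sets and array weights. For WT cDC2 against cDC1 (1), 3 were called with quantile normalization, the replicate block, the array set as a term, 3 array sets as a term and array weights, and 4 with the replicate block within the 2 groups. For WT cDC2 against pDC (1), 2 were called with quantile normalization and with 3 array sets. The list genes called in cDC2 (10) became 19 with 3 array sets. The differences between genotype effects (14) became 21 with 3 array sets, 8 with the filter of at least 12 arrays and 7 without the WT arrays numbered 1. The 3 sets and the block within the 2 groups were added after the data were examined, and the 3 sets were found from the same deviations, so their larger counts are no support. The cause of the other shifts was not tested. The array weights stopped before full convergence. The replicate block over all arrays also let Trappc5 in cDC1 (adjusted p = 0.0140) and Runx3 in cDC2 (0.0170) pass. Of the genes outside the family recomputed in each setting it changed no other cKO against WT call, but 4 calls of differences between genotype effects (14 became 16). In cDC2 and pDC equal numbers do not count as paired, so the block may not match arrays there. With 2 groups alone Lyz2 (0.0503), Csf3r (0.0643), Naaa (0.0859) and Cd163 (0.110) in cDC2 did not pass.

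With 1 array left out, members called ranged from 3 to 3 in cDC1, 1 to 3 in cDC2, 0 to 0 in pDC, 1 to 3 for WT cDC2 against cDC1, 1 to 2 against pDC and 3 to 4 for WT cDC1 against pDC. List genes ranged from 5 to 7, 7 to 10 and 0 to 0, and effect differences from 11 to 14. Of all genes, 66 were called in cDC1 without WT array 2 (main 101), 107 and 123 in cDC2 without WT array 1 and 2 (main 190), and 1 to 7 in pDC (main 4).

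Other counts of all genes called that moved by over 1.5 times were 214 (3 array sets) and 271 (array weights) in cDC1, and 344 (array set), 552 (3 array sets) and 106 (without the WT arrays numbered 1) in cDC2. In pDC they were 9 and 17 with array sets, 7 with quantile normalization, 1 with array weights and 0 with the stricter filter and with 2 groups alone. For WT cDC2 against cDC1 (736) they were 1158 and 1977 with the replicate block over all and within 2 groups, 1291 and 1902 with array sets and 430 without the WT arrays numbered 1. For WT cDC2 against pDC (1548) they were 2520, 3484, 890 and, with 2 groups alone, 937. For WT cDC1 against pDC (1643) they were 2611, 3602, 1064 and 1002, and 2733 with the block within the 2 groups.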
